A study of Rattus norvegicus with 31 samples.

Results

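The renin-angiotensin genes described here are Agt, Ace, Agtr1a, Agtr2, Atp6ap2 and Lnpep, which were measured by bulk RNA sequencing in rat fat. They were taken by gene name from the count and FPKM tables, each name matched 1 entry, and together they are 6 of the 32883 entries. Agt encodes the substrate of the system, Ace a converting enzyme, Agtr1a and Agtr2 the receptors of angiotensin II, Atp6ap2 the (pro)renin receptor and Lnpep the aminopeptidase that binds angiotensin IV.

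Angiotensinogen is a secreted protein from which renin cuts angiotensin I, and angiotensin-converting enzyme trims that peptide to angiotensin II, which constricts vessels through the type 1 receptor. The type 2 receptor binds the same peptide and generally opposes the type 1 receptor. Liver is the main source of circulating angiotensinogen, and adipocytes also make it.

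The samples came from male Sprague-Dawley rats on a chow diet, whose labels give 10 to 15 weeks as the age and 15 weeks as the time point. In the coarctation groups a silk ligature was tied around the mid-thoracic aorta, and in the sham groups it was placed but left untightened. Telemetry gave a systolic pressure gradient of about 20 mmHg across the tied ligature at 4 weeks after surgery. Perivascular adipose tissue (PVAT), the fat around the aorta, was taken above and below the ligature, and brown adipose tissue (BAT) was a separate depot. There were 6 libraries of coarctation PVAT above the ligature (coarct above), 6 below it (coarct below) and 5 of coarctation BAT (coarct BAT). Sham surgery gave 5 libraries above (sham above), 5 below (sham below) and 4 of BAT (sham BAT). Libraries are called here by group and by the number in the sample title, which recurs across sites, so that coarct above 27, coarct below 27 and coarct BAT 27 share a number. No source used here states that a number is 1 rat, or that libraries of a group came from separate rats, so the p-values describe only the spread among these libraries, which may be technical.

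Library totals ran from 15713160 to 26530733 counts, and levels are given as counts scaled to the size of the library (CPM) or as FPKM, which also divides by gene length. Adipocyte marker sums (6 of 6 markers with counts in every group) ran from 8960 to 16800 CPM and brown adipocyte marker sums from 2110 to 4210 CPM. Of the brown adipocyte list, Dio2 had no entry and Elovl3 was at 0 in sham above and sham BAT. Cardiac muscle markers had median sums of 580 CPM in coarct above and 787 CPM in sham above, against 2.75 and 0.541 CPM below. Sympathetic neuron markers reached 222 to 537 CPM in coarct below 23, 25, 29 and 30 and 297 CPM in sham below 28. The other libraries held 7.81 to 20.5 CPM of them. Mitochondrial genes took 33.8% to 49.9% of the counts of a library, with medians of 44.6% and 46.4% in the BAT groups against 38.4% to 41.5% in the PVAT groups. The ranges overlapped, from 33.8% to 49.9% in BAT and from 35.6% to 45.5% in PVAT. Where that share is high, the CPM of every other gene is diluted, and the fitted log2 differences, which rescale libraries by TMM factors, can differ in sign from the difference of mean CPM.

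None of the 6 genes passed the test in any of the 10 comparisons, which used edgeR's quasi-likelihood test with Benjamini-Hochberg adjustment over all genes tested and a threshold of 0.05. In coarct above against sham above, 0 of 5 tested members were called, beside 0% of 14556 genes. In coarct below against sham below the count was again 0 of 5, beside 0% of all genes. For coarct above against coarct below it was 0 of 5 beside 0.103%, for sham above against sham below 0 of 5 beside 0.0687%, and for the interaction of surgery and site 0 of 5 beside 0%. In coarct BAT against sham BAT, 0 of 4 tested members were called beside 0% of 13644 genes. Among comparisons of PVAT with BAT, the counts were 0 of 5 for sham above (0.648% of 14190 genes) and 0 of 5 for sham below (0.810%). They were 0 of 4 for coarct above (1.28% of 14276 genes) and 0 of 4 for coarct below (4.20%).

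At an unadjusted p under 0.05, 6 of the 47 member differences passed (12.8%), beside 8.76% of all gene tests in the 10 comparisons. They were Lnpep in coarct above against sham above and against coarct below, Agtr1a in coarct below against sham below and in sham below against sham BAT, and Atp6ap2 in coarct below against coarct above and against coarct BAT. The share of all genes at that level was 3.59% in coarct above against sham above, 5.12% in coarct below against sham below, 5.43% in coarct above against coarct below, 10.5% in sham below against sham BAT and 23.9% in coarct below against coarct BAT. DESeq2's Wald test called 0 of the 47 member differences. Over all genes, the 4 comparisons with no call had 523, 745, 352 and 928 genes at an unadjusted p under 0.05, in the order coarct above against sham above, coarct below against sham below, the interaction, and coarct BAT against sham BAT. DESeq2 called 8 and 1 genes in the first 2 of them. Agtr2 was too low for the filter in every fit, and Lnpep was too low in the BAT fit and in the coarctation fit that held BAT.

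**Figure D1:**
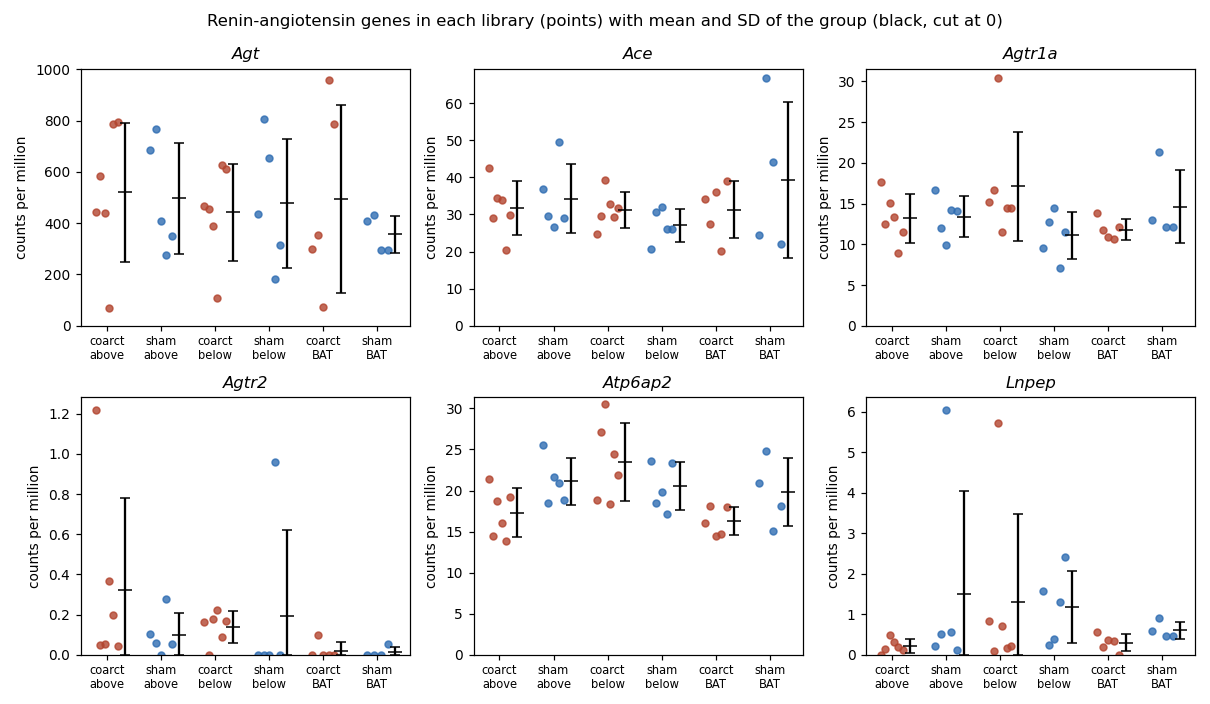
CPM (y axis, from 0) of each gene in the 31 libraries by group (x axis); points are libraries, red for coarctation and blue for sham, and black marks give the mean and SD of the group. Groups overlap for Agt, Ace and Agtr1a, while single libraries stand far above the rest for Agtr2 (1.22 and 0.959 CPM) and Lnpep (6.05 and 5.71 CPM).

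By level per gene length, Agt was the most abundant member and Agtr2 the scarcest. Agt averaged 243 FPKM over the 31 libraries and ranked 295 among the 24072 entries with any FPKM. Ace averaged 12.3 FPKM, Atp6ap2 9.07 FPKM and Agtr1a 6.23 FPKM. Lnpep averaged 0.287 FPKM and Agtr2 0.0476 FPKM, with ranks of 14736 and 18692. Kidney marker sums did not exceed 0.177 CPM in any library. Liver marker sums ran from 46.5 to 258 CPM, with counts for 3 of 4 markers in each PVAT group and 2 of 4 in each BAT group, and Fga at 0 in every group. The part of liver transcripts in the level of Agt was not tested. Over PVAT libraries their sum had the highest rho with Agt of the marker sums (0.42), close to the 0.396 of the Schwann cell sum. The adipocyte and brown adipocyte sums had a rho of -0.228 and -0.09 with Agt.

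Agt (ENSRNOG00000018445, chromosome 19) varied between libraries far more than between groups. The mean was 520 ± 270 CPM (SD, n = 6) in coarct above, 497 ± 217 CPM (n = 5) in sham above, 494 ± 365 CPM (n = 5) in coarct BAT, 477 ± 251 CPM (n = 5) in sham below and 442 ± 188 CPM (n = 6) in coarct below. Sham BAT was last, at 356 ± 72.3 CPM (n = 4). No neighbours in that order, nor its first and last groups, differed by more than their SDs. The highest library, coarct BAT 29 at 958 CPM, held 13.7 times the CPM of the lowest, coarct above 27 at 69.9 CPM, and 5.26 times that of sham below 26 (182 CPM), the lowest library without number 27. In these bulk samples, fewer cells of a type and less RNA per cell cannot be told apart.

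The level of Agt followed the title number across sites. Number 27 measured 69.9 CPM above, 110 CPM below and 73.6 CPM in BAT. Numbers 29 and 30 measured 785 and 794 CPM above, 626 and 610 CPM below, and 958 and 785 CPM in BAT. Number 27 was thus the lowest and numbers 29 and 30 the highest of the coarctation libraries at all 3 sites.

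Among the other coarctation numbers, number 19 measured 445 CPM above, 466 CPM below and 301 CPM in BAT, and number 23 measured 585, 456 and 352 CPM at the same sites. Number 25, which had no BAT library here, measured 440 CPM above and 387 CPM below. Sham number 22 had the highest sham level at every site, with 767 CPM above, 804 CPM below and 430 CPM in BAT. Sham number 26 measured 274 CPM above, 182 CPM below and 294 CPM in BAT, the lowest sham PVAT libraries at both sites. Numbers 20 and 24 measured 686 and 409 CPM above, 437 and 652 CPM below and 407 and 294 CPM in BAT. Number 28 measured 349 CPM above and 313 CPM below. Within a number the highest library exceeded the lowest by 1.12 to 2.21 times.

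**Figure D2:**
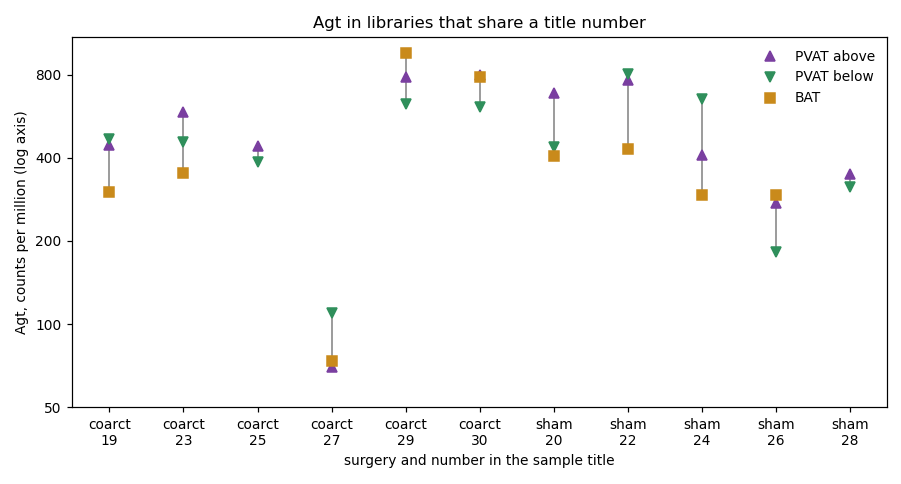
Agt in CPM (y axis, log scale) for each number in the sample titles (x axis, coarctation then sham); triangles are PVAT above and below, squares BAT, and grey lines join libraries of 1 number. Number 27 lies at 69.9 to 110 CPM at all 3 sites, and numbers 29 and 30 lie at 610 to 958 CPM.

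Across numbers, the log2 CPM of Agt above and below correlated with Pearson's r = 0.901 (n = 11, permutation p = 0.0007, adjusted p = 0.0042 over 12 relations) and Spearman's rho = 0.718 (permutation p = 0.0166, adjusted p = 0.0996). Without numbers 27 and 30, the farthest from the median, r was 0.777 (n = 9). Above and BAT correlated at r = 0.923 (n = 9, exact permutation p = 2.2e-05, adjusted p = 0.000264) and rho = 0.983 (exact permutation p = 4.96e-05, adjusted p = 0.000595), and at r = 0.805 without numbers 26 and 27. Below and BAT correlated at r = 0.784 (n = 9, exact permutation p = 0.0216, adjusted p = 0.0864) and rho = 0.6 (exact permutation p = 0.0968, adjusted p = 0.29). That last relation rested on numbers 26 and 27, without which r was 0.315. Among the 6 coarctation numbers alone, above and below gave r = 0.993 (exact permutation p = 0.0167, unadjusted) and rho = 0.886 (exact permutation p = 0.0333, unadjusted), with r = 0.884 over 4 numbers without 27 and 30. All tests were 2-sided, no correlation was computed for the 5 sham numbers alone, and no relation of Ace, Agtr1a or Atp6ap2 passed.

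Of the within-group variation of log2(CPM + 0.5) in Agt, 91.4% lay between title numbers, against a median of 46.9% over 15018 genes, and 58 genes had a larger share. The SD of Agt within groups was 1.02 on that log2 scale, against a median of 0.356, and 412 genes had a larger SD. Number 27 carried much of this: without its 3 libraries, a choice made after seeing the data, the share was 75.5% against a median of 47.1%, with 839 genes above it, and the SD was 0.599. The share was 46.7% for Agtr1a, 38.2% for Atp6ap2, 35.5% for Ace and 34.1% for Lnpep, at or below the median of all genes. Libraries also split by reads of mitochondrial 12S rRNA, with 17 libraries at 2571.6 CPM or more and 14 at 79.0 CPM or less. The libraries of number 27 lay on the low side above and below and on the high side in BAT, so that its low Agt occurred on both sides of that split.

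**Figure D3:**
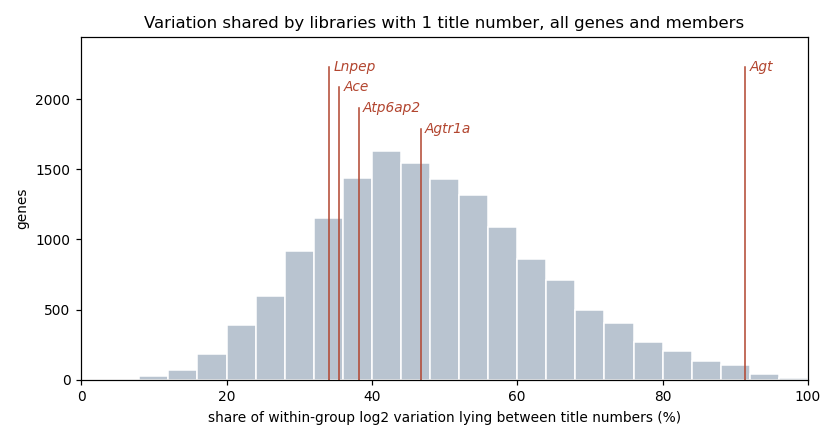
Share of within-group variation in log2(CPM + 0.5) that lies between title numbers (x axis, %) for 15018 genes (bars, number of genes on the y axis), with red lines at the tested members. Agt lies at 91.4%, and Ace, Agtr1a, Atp6ap2 and Lnpep lie between 34.1% and 46.7%.

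With so wide a spread, the group comparisons of Agt had wide intervals. Coarct above minus sham above was 0.17 on the log2 scale (SE 0.495, 95% interval -0.86 to 1.2, edgeR adjusted p = 0.999). Coarct below minus sham below was -0.16 (SE 0.494, interval -1.19 to 0.86, edgeR adjusted p = 0.97). The BAT difference was 0.71 (SE 0.59, interval -0.58 to 1.99, edgeR adjusted p = 0.701), and without number 27 it was 0.99 (edgeR adjusted p = 0.287). The data do not exclude differences within these intervals. Against BAT, Agt in sham PVAT differed by 0.35 above and 0.37 below (SE 0.367 for each), with edgeR adjusted p-values of 0.921 and 0.851. In the coarctation groups the same differences were -0.13 above (SE 0.613, edgeR adjusted p = 0.928) and -0.42 below (SE 0.612, edgeR adjusted p = 0.696). With the title number as a block, in a fit of 5 against 5 libraries, the difference below was -0.06 (SE 0.246, 95% interval -0.62 to 0.5, edgeR adjusted p = 0.904), against -0.38 (SE 0.63) in the same libraries without the block.

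Ace (ENSRNOG00000062101, chromosome 10), the converting enzyme that also breaks down bradykinin, ran from 20.3 to 49.5 CPM in PVAT and had its largest SD in sham BAT. Sham BAT measured 39.3 ± 20.9 CPM (SD, n = 4), sham above 34.3 ± 9.27 CPM (n = 5), coarct above 31.7 ± 7.33 CPM (n = 6), coarct BAT 31.3 ± 7.62 CPM (n = 5), coarct below 31.2 ± 4.88 CPM (n = 6) and sham below 27.1 ± 4.5 CPM (n = 5). No neighbours in this order differed beyond their SDs. The 4 sham BAT libraries held 24.4, 66.9, 44.1 and 22 CPM for numbers 20, 22, 24 and 26, a range of 3.04 times that was set by number 22.

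Surgery differences of Ace were small beside their errors, at -0.07 above (SE 0.143, 95% interval -0.37 to 0.23, edgeR adjusted p = 0.999) and 0.09 below (SE 0.144, interval -0.2 to 0.39, edgeR adjusted p = 0.942) on the log2 scale. In BAT the difference was -0.15 (SE 0.255, interval -0.71 to 0.41, edgeR adjusted p = 0.85), and 0.02 without sham BAT 22. The lowest p of Ace belonged to sham below against sham BAT, at -0.51 (SE 0.241, edgeR adjusted p = 0.481), with 0 of 5 PVAT libraries above the BAT median. Without sham BAT 22 that difference was -0.28 (edgeR adjusted p = 0.797).

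Ace was high in libraries rich in fibroblast transcripts. Over the 22 PVAT libraries, after group means were removed, its Spearman's rho with the summed CPM of 7 fibroblast markers (Pdgfra, Dpt, Pi16, Dcn, Lum, Col1a1 and Col3a1, all with counts in every group) was 0.879. It was 0.752 with the macrophage sum, 0.621 with the mast cell sum, 0.586 with the vascular smooth muscle sum and 0.561 with the pericyte sum. With the endothelial sum it was 0.526, although endothelium is the classical site of Ace. These correlations describe libraries that share preparation and depth, and carry no test. Sham BAT 22 had both the highest Ace and the highest fibroblast sum, 14700 CPM, beside 589 CPM of macrophage markers. Coarct above 29 and sham below 20 had the lowest PVAT levels of Ace, 20.3 and 20.6 CPM, and the lowest fibroblast sums, 1430 and 1500 CPM. The part of fibroblast content in the level of Ace was not tested.

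**Figure D4:**
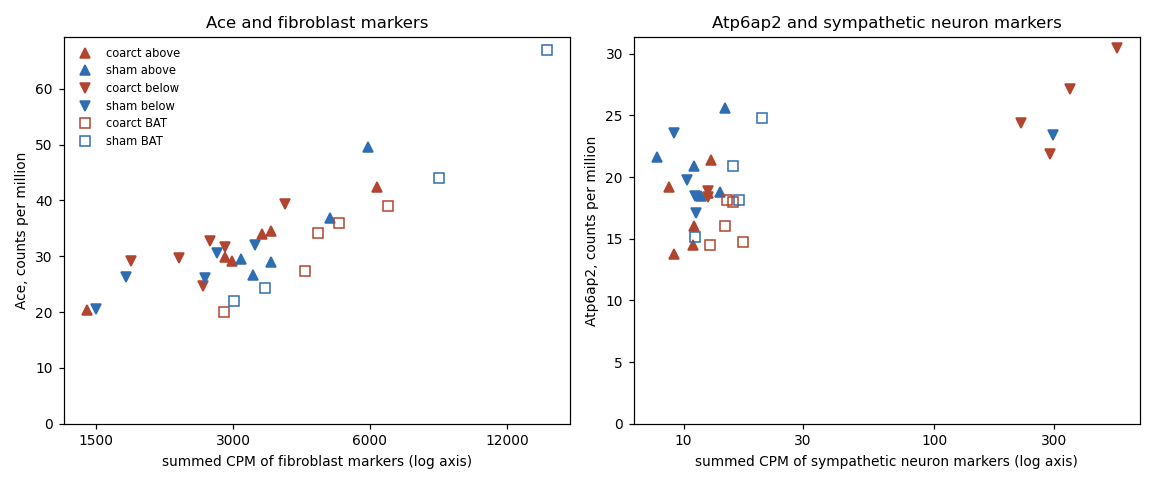
Left, Ace in CPM (y axis) against the summed CPM of fibroblast markers (x axis, log scale) in 31 libraries; right, Atp6ap2 against the summed CPM of sympathetic neuron markers. Ace is highest, 66.9 CPM, where the fibroblast sum is highest, and the 5 libraries with 222 to 537 CPM of neuron markers hold 21.9 to 30.5 CPM of Atp6ap2.

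The receptors of angiotensin II differed widely in level per gene length, with means of 6.23 FPKM for Agtr1a and 0.0476 FPKM for Agtr2. The 250 bases before their start sites (RefSeq, GRCr8) are shown because the receptors share a ligand and differ so widely in level, with CpG pairs in capitals. Agtr1a lies at chr17:34435433-34435682 on the minus strand and Agtr2 at chrX:116914070-116914319 on the plus strand.
Agtr1a: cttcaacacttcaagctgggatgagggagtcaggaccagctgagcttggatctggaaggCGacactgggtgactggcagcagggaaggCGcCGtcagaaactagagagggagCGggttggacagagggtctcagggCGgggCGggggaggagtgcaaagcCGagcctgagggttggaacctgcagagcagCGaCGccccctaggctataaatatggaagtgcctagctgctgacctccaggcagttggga
Agtr2: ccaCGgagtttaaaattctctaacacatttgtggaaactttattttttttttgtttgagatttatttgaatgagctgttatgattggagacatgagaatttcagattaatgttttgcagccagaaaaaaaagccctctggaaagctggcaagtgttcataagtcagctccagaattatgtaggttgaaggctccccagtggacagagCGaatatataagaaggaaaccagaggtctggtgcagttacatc
The Agtr1a window holds 9 CpG pairs and a GC content of 60.8%, and the Agtr2 window 2 CpG pairs and 38.0%. Over 27457 promoter windows of this length the median was 6 CpG pairs, 41.1% had at least 9 and 82.4% at least 2. CpG pairs did not follow level over the other members with a window. Lnpep, at 0.287 FPKM, had 29, Ace, at 12.3 FPKM, had 23 and Atp6ap2, at 9.07 FPKM, had 18. The letters TATAAA, searched on both strands, are in the Agtr1a window and not in the Agtr2 window, and 13.1% of all windows hold them. Only these exact letters were searched. The Agtr2 window holds the near variant TATATAAG close to its end, which the search does not count. These are descriptions of the sequence, and nothing here measured the activity of any window.

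Agtr1a (ENSRNOG00000018346, chromosome 17), a type 1 receptor gene and the main one of these in rat vessels, was detected in every library at 7.11 to 30.4 CPM. The mean was 17.1 ± 6.72 CPM (SD, n = 6) in coarct below, and sham BAT had 14.6 ± 4.47 CPM (n = 4), sham above 13.4 ± 2.55 CPM (n = 5), coarct above 13.2 ± 3.02 CPM (n = 6), coarct BAT 11.8 ± 1.25 CPM (n = 5) and sham below 11.1 ± 2.87 CPM (n = 5). Neighbours in this order did not differ beyond their SDs. Agtr1b, the gene of the other rat type 1 receptor, had 8 counts in all 31 libraries; it was named after its values were seen, and how reads that match both genes were counted is not given in the sources used here.

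The comparison of coarct below with sham below held the lowest p of Agtr1a. The coarct below libraries ran from 11.5 through a median of 14.8 to 30.4 CPM, and the sham below libraries held 9.54, 12.7, 14.5, 7.11 and 11.5 CPM for numbers 20, 22, 24, 26 and 28. The ranges overlapped, although 6 of 6 coarct libraries were above the sham median. The log2 difference was 0.51 (SE 0.191, 95% interval 0.12 to 0.91, edgeR adjusted p = 0.881). Coarct below 25, at 30.4 CPM, stood apart from the next library at 16.7 CPM, and the difference without it was 0.33 (edgeR adjusted p = 1). Coarct below 25 also had the highest sympathetic neuron sum, 537 CPM, and a skeletal muscle sum of 2480 CPM, the highest of the PVAT libraries. Without the 5 neuron-rich libraries, which left only numbers 19 and 27 in coarct below, the difference was 0.25 (edgeR adjusted p = 0.847).

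Above the ligature Agtr1a differed by 0.02 between coarctation and sham (SE 0.19, interval -0.37 to 0.42, edgeR adjusted p = 0.999). The interaction, which compares the surgery difference above with that below, was -0.49 (SE 0.268, interval -1.05 to 0.07, edgeR adjusted p = 1), so that the surgery differences at the 2 sites were not shown to differ. In sham below against sham BAT, Agtr1a differed by -0.41 (SE 0.188, interval -0.81 to -0.01, edgeR adjusted p = 0.464), and by -0.3 without sham BAT 22, whose 21.3 CPM stood above 12.1 to 13 CPM in the other sham BAT libraries.

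Agtr2 (ENSRNOG00000050006, chromosome X), the type 2 receptor gene, had 84 counts over all libraries and none in 13 of them. Coarct above 19 held 24 counts (1.22 CPM) and sham below 26 held 17 (0.959 CPM), and no other library had more than 8. A count of 0 allows up to 0.113 to 0.191 CPM at these depths (3 counts, counting error only). Among the coarct above libraries 6 of 6 had a count, with 24, 1, 1, 8, 4 and 1 for numbers 19, 23, 25, 27, 29 and 30. No count was found in 1 of 5 sham above, 1 of 6 coarct below and 4 of 5 sham below libraries.

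In BAT, Agtr2 had 3 counts in 2 of 9 libraries, against 81 counts in 16 of 22 PVAT libraries. The summed count rate was 11.2 times higher in PVAT, with an exact 95% interval of 3.7 to 55.5 that covers counting error only and not the spread between libraries. Without coarct above 19 and sham below 26 the ratio was 6.06 (1.93 to 30.6), from 40 counts in 14 of 20 PVAT libraries. The gene was below the filter of the main fits, so the difference has no main test over libraries. No result of the fits without a filter is given here for Agtr2.

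Atp6ap2 (ENSRNOG00000003858, chromosome X), which encodes the (pro)renin receptor and also an accessory subunit of the vacuolar proton pump, had the narrowest spread of the tested members. Coarct below measured 23.5 ± 4.77 CPM (SD, n = 6), sham above 21.1 ± 2.87 CPM (n = 5), sham below 20.5 ± 2.92 CPM (n = 5), sham BAT 19.8 ± 4.13 CPM (n = 4), coarct above 17.3 ± 2.98 CPM (n = 6) and coarct BAT 16.3 ± 1.75 CPM (n = 5). Neighbours did not differ beyond their SDs, while the first and last groups, coarct below and coarct BAT, differed by more than either SD. The SD within groups was 0.233 on the log2(CPM + 0.5) scale, against a median of 0.356 for all genes.

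The coarct above libraries ran from 13.8 through a median of 17.4 to 21.4 CPM, and the coarct below libraries from 18.4 through 23.1 to 30.5 CPM. None of the 6 libraries above reached the median of those below, although the ranges overlapped. The log2 difference, above minus below, was -0.39 (SE 0.129, 95% interval -0.66 to -0.13, edgeR adjusted p = 0.25). Adjusted p-values ran from 0.0765 to 1 over the alternatives, the lowest without coarct below 27. In sham rats the same difference was -0.07 (SE 0.141, edgeR adjusted p = 0.998), and the interaction was -0.32 (SE 0.191, interval -0.72 to 0.07, edgeR adjusted p = 1), so a difference between surgeries was not shown.

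Among the coarct below libraries, Atp6ap2 was higher where neuron markers were high. The 4 neuron-rich coarct below libraries, numbers 23, 25, 29 and 30, held 27.1, 30.5, 24.4 and 21.9 CPM, and the other 2, numbers 19 and 27, held 18.9 and 18.4 CPM. Sham below 28, also neuron-rich, held 23.4 CPM, within the 17.1 to 23.6 CPM of the other sham below libraries. Without the 5 neuron-rich libraries, the difference of coarct above from coarct below was -0.1 (edgeR adjusted p = 1).

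The CPM ranges of coarct below and coarct BAT did not overlap, with 16, 18.1, 14.5, 14.7 and 18 CPM in BAT for numbers 19, 23, 27, 29 and 30. How many of all genes share this was not counted. CPM was also more diluted in coarct BAT, where the median mitochondrial share was 46.4%, against 38.4% in coarct below. The fitted log2 difference, coarct below minus coarct BAT, was 0.31 (SE 0.129, interval 0.04 to 0.58, edgeR adjusted p = 0.152). Without the neuron-rich libraries it was 0.01 (edgeR adjusted p = 0.984). Of the sympathetic neuron list, 8 of 8 markers had counts in coarct below. The part of neuron content in the level of Atp6ap2 was not tested beyond these values. Above the ligature, coarct minus sham was -0.23 (SE 0.135, interval -0.52 to 0.05, edgeR adjusted p = 0.999), and 1 of 6 coarctation libraries exceeded the sham median.

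Lnpep (ENSRNOG00000047387, chromosome 1), known as insulin-regulated aminopeptidase, travels with the glucose transporter of fat and muscle and binds angiotensin IV. Its counts were low and set by few libraries. Sham above 24 held 117 counts (6.05 CPM) and coarct below 25 held 97 (5.71 CPM), followed by sham below 28 with 38 and sham below 20 with 32, and the other libraries held 0 to 24 counts. Group means were 1.49 ± 2.56 CPM (SD, n = 5) in sham above, 1.29 ± 2.19 CPM (n = 6) in coarct below, 1.18 ± 0.897 CPM (n = 5) in sham below, 0.603 ± 0.21 CPM (n = 4) in sham BAT, 0.293 ± 0.208 CPM (n = 5) in coarct BAT and 0.213 ± 0.172 CPM (n = 6) in coarct above. The mean ± SD ranges of neighbours in this order overlapped, although sham BAT and coarct BAT differed by more than either SD.

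Coarct above ran from 0 through a median of 0.17 to 0.493 CPM, and the sham above libraries held 0.207, 0.507, 6.05, 0.558 and 0.106 CPM for numbers 20, 22, 24, 26 and 28. The log2 difference was -2.79 (SE 1.08, 95% interval -5.05 to -0.54, edgeR adjusted p = 0.999), and without sham above 24 it was -0.6 (edgeR adjusted p = 1). For coarct above against coarct below it was -2.41 (SE 1.06, interval -4.61 to -0.22, edgeR adjusted p = 0.73), and -0.92 without coarct below 25. Single libraries thus carried both differences. Below the ligature, coarct minus sham was -0.11 (SE 0.983, edgeR adjusted p = 0.994).

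**Figure D5:**
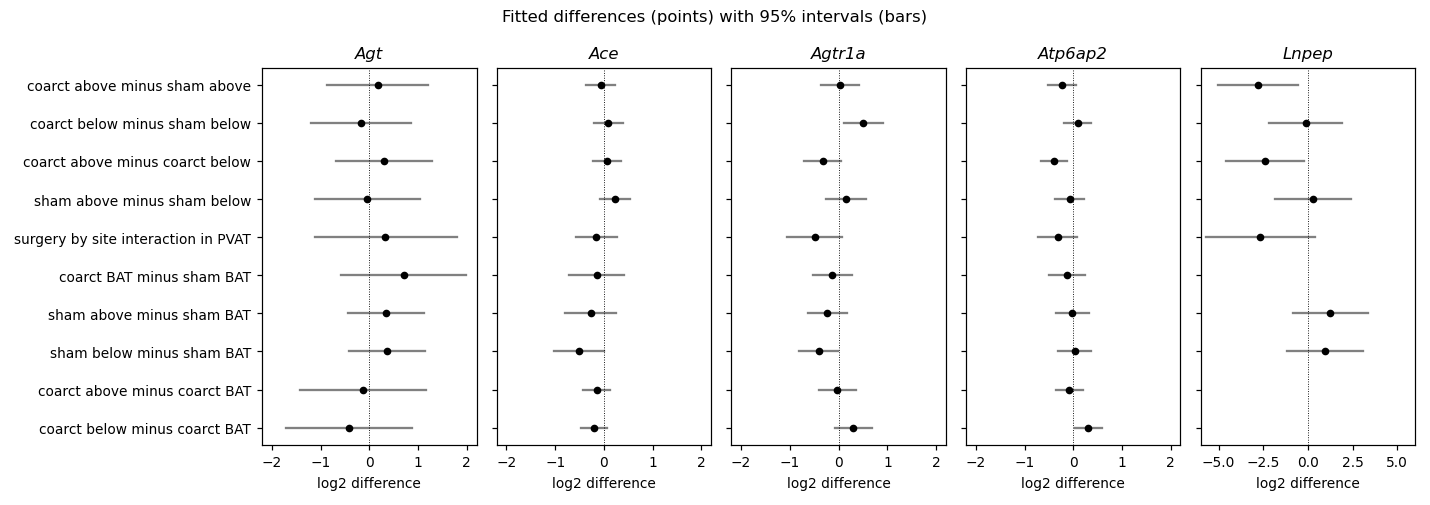
Fitted log2 differences (points, x axis) with 95% intervals (bars) of the 5 tested members in the 10 comparisons (y axis, first group minus second); the axis of Lnpep is wider, and a missing point is a fit in which it was not tested. The intervals of Agt reach from -1.71 to 1.99 over the comparisons, and those of Atp6ap2 from -0.72 to 0.58.

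Other genes of the pathway were taken as lists, chosen like the members with earlier results of these data known. Of 16 angiotensin peptidases, 14 were tested and 2 were called, in 1 comparison, coarct below against coarct BAT. In coarct below, Ctsa, a lysosomal carboxypeptidase, measured 97.7 ± 7.75 CPM (SD, n = 6), against 120 ± 7.05 CPM (n = 5) in coarct BAT. The CPM ranges did not overlap, and how many of all genes share this was not counted. Ctsa fell by 0.52 on the log2 scale from BAT to PVAT (SE 0.11, edgeR adjusted p = 0.0127). Rnpep, aminopeptidase B, measured 112 ± 13.7 CPM (n = 6) and 137 ± 32.4 CPM (n = 5), with overlapping ranges, and differed by -0.47 (SE 0.115, edgeR adjusted p = 0.0302). The list's median log2 difference in that comparison was -0.17, beside 0 for all genes, and 4.20% of all genes were called. With the title number as a block, in a fit of 5 against 5 libraries, neither was called (adjusted p = 0.132 for Ctsa and 0.14 for Rnpep), nor were they in the same libraries without the block (0.16 and 0.187). Rnpep alone was also lost without coarct below 25, 29 or 30 or coarct BAT 19 (edgeR adjusted p from 0.0611 to 0.0655). Without the neuron-rich libraries, which left only numbers 19 and 27 in coarct below, neither was called. The differences then were -0.62 for Ctsa (edgeR adjusted p = 0.224) and -0.37 for Rnpep (edgeR adjusted p = 0.415).

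The other lists held no called gene in any of the 10 comparisons. They were the other receptors and receptor partners (6 genes, 3 tested), the kinin system (5 genes, 3 in the table, 1 tested) and the glucocorticoid and mineralocorticoid axis (9 genes, 8 tested). Kng2, Klk1 and Nr3c1 were not analysed here. Mme and Ctsd, peptidases that can act on angiotensins, averaged 42.8 ± 9.63 FPKM (SD, n = 31) and 569 ± 120 FPKM. These levels were chosen for the text after their values were seen.

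The tested members did not vary as 1 group. Over the 22 PVAT libraries, after group means were removed, Spearman's rho was 0.702 for Ace with Agtr1a, 0.534 for Agtr1a with Atp6ap2 and 0.382 for Ace with Atp6ap2. Agt had a rho of -0.184 with Ace, 0.003 with Agtr1a and 0.008 with Atp6ap2, and -0.476 with Lnpep. Of the pathway genes, Ctsd (0.708) and Enpep (0.693), an aminopeptidase that cuts angiotensin II, were the closest to Agt. These values describe libraries with shared preparation and depth and carry no test.

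By a fixed rule, the 3 genes closest to each tested member among 11638 were listed by the same rho. For Agt they were Glul (0.877), which encodes glutamine synthetase, Suox (0.86), which encodes sulfite oxidase, and Slc22a3 (0.86), a transporter of organic cations. For Ace they were Actn1 (0.924), an actin crosslinker, Mmp14 (0.922), a membrane matrix protease, and Ndrg1 (0.919). For Agtr1a they were Ptpra (0.888), Pea15 (0.872) and Dclk3 (0.86), for Atp6ap2 Usp14 (0.893), Bok (0.843) and Rab6a (0.789), and for Lnpep Uevld (0.822), Taok1 (0.798) and Epm2a (0.793). The rho of Agt with the marker sums lay between -0.399 and 0.42.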

How the data were processed

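The authors deposited whole-number read counts per Ensembl gene in 31 libraries, without normalisation, and FPKM values, which match the counts scaled by a single gene length and the sum of the library (largest relative deviation 6.85e-15). Per the submitters' processing notes, the tools were STAR 2.5, HTSeq 0.6.1 and DESeq2 1.24.0. Build, annotation release and strand setting: not given in the sources used here.

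The main test was edgeR 4.0.16 under R 4.3.3 (quasi-likelihood F test after TMM scaling and filterByExpr), adjusted by Benjamini-Hochberg over all genes tested. The 22 PVAT libraries shared a fit for 5 comparisons, the 9 BAT libraries had their own, and PVAT was compared with BAT within the 14 sham and the 17 coarctation libraries. Each SE is the size of the log2 difference over the root of F. The scripts were tested on simulated counts. CPM divides by the whole library total.

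The members, pathway lists, marker lists and tests were chosen with earlier results of these data known. The rule for named genes took all members, every called gene of the pathway lists and the 3 genes with the highest rho for each tested member (mean of at least 1 CPM). Alternatives were the Wald test of DESeq2 1.42.0, its size factors in edgeR, no filter, 1 fit of all libraries, the 12S rRNA split (at 450.7 CPM) as a term or in separate fits, leaving out neuron-rich PVAT libraries (over 100 CPM of the markers), a replicate block for the title number, and leaving out each library. Numbers were taken to pair libraries where each pair of libraries with 1 number had deviations from its group means that correlated over 0.1, since no label says what a number marks. This held for sham below with sham BAT (4 of 4 pairs, 0.251 to 0.417) and coarct below with coarct BAT (5 of 5, 0.117 to 0.246). Permutation tests used 100000 draws for 10 or more values and were exact below that.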

Additional observations from a re-analysis of the deposited data

Results flagged for a closer look

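In 8 of the 36 sets of values of 1 member in 1 group, the highest library stood apart from the others by Dixon's criterion. Its chance rate of about 1 in 20 is for normally distributed values. Most flags fell on Agtr2 and Lnpep, which had few counts, so the number of flags cannot be read against that rate. Where all other libraries of a group are at 0, any count is flagged. Agtr1a measured 30.4 CPM in coarct below 25, against at most 16.7 CPM in the other 5 libraries, and 21.3 CPM in sham BAT 22, against at most 13 CPM in the other 3. Sham BAT 22 also had the highest Schwann cell sum, 955 CPM, and the highest fibroblast sum, 14700 CPM, of all libraries. Lnpep measured 6.05 CPM in sham above 24, against at most 0.558 CPM in its group, and 5.71 CPM in coarct below 25, against at most 0.82 CPM.

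Agtr2 measured 1.22 CPM (24 counts) in coarct above 19, against at most 0.365 CPM in its group, and 0.959 CPM (17 counts) in sham below 26, where the other 4 libraries had no count. Coarct above 19 also had the highest cardiac muscle sum, 2680 CPM, and the highest PVAT fibroblast sum, 6220 CPM. Sham below 26 had 0.282 CPM of cardiac markers and 2600 CPM of fibroblast markers. The Agtr2 values of 0.0965 CPM in coarct BAT 23 (2 counts) and 0.0516 CPM in sham BAT 26 (1 count) stood apart only because the rest of the group was at 0. The part of other cell types in these levels was not tested.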

How the results depend on the processing

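Of 47 main-fit member results, 0 were called under any setting (lowest adjusted p 0.0765). Of 960 recomputed differences, 900 kept direction and 60 turned, in 21 results. Members filtered from a main fit were left out. With the 12S rRNA side as a term, sham above minus sham below turned to 0.16 for Agt and -0.9 for Lnpep. Among libraries of the high rRNA side, surgery differences turned to -0.19 for Agtr1a above, 0.05 for Agt and -0.05 for Ace below and -0.63 for Agt in BAT. There, sham above minus sham below turned to 0.1 for Atp6ap2 and -1.66 for Lnpep, and sham above minus BAT to 0.09 for Ace, 0.04 for Agtr1a, 0.1 for Atp6ap2 and -0.71 for Lnpep. Coarctation PVAT minus BAT turned to 1.46 for Agt and 0.08 for Atp6ap2 above and 0.98 for Agt below. On the low side, coarct above minus sham above turned to -0.49 for Agt and 0.18 for Ace. Without neuron-rich libraries, Atp6ap2 in coarct below minus sham below turned to -0.14.

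With the title number as a replicate block, sham above minus sham below turned to 0.03 for Agt and -0.83 for Lnpep, Atp6ap2 to 0.02 and -0.03 in sham above and below minus BAT, and Agt to 0.03 in coarct above minus BAT. The block narrowed the SE of Agt, from 0.51 to 0.153 in coarct above minus below on the same libraries. Those libraries without the block, an alternative chosen after seeing the data, gave 0.02 and -0.04 for Atp6ap2. The block changed no call of a member. By the rule of each pair over 0.1, numbers were not taken to pair coarct above and below. There 5 of 6 pairs passed, from 0.063 to 0.46 over all pairs, and 4 of 6 were closest to their own number. The rule was also missed by sham above and below (3 of 5), sham above and BAT (1 of 4) and coarct above and BAT (4 of 5). Missing it does not show that libraries of 1 number are unpaired.

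Leaving out 1 library turned the following. Above the ligature, coarct minus sham ranged from -0.03 to 0.38 for Agt, -0.15 to 0.07 for Ace and -0.06 to 0.1 for Agtr1a; below it, from -0.36 to 0.08 for Agt and -1.62 to 0.32 for Lnpep. Sham above minus below ranged from -0.24 to 0.21 for Agt and -1.92 to 0.7 for Lnpep. Ace in BAT ranged from -0.32 to 0.02. Sham PVAT minus BAT ranged from -0.1 to 0.11 above and -0.03 to 0.18 below for Atp6ap2, and -0.91 to 1.56 above for Lnpep. Coarctation PVAT minus BAT ranged from -0.41 to 0.45 for Agt and -0.12 to 0.04 for Agtr1a above, and -0.7 to 0.15 for Agt below.

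Ctsa stayed called under 16 of 21 alternatives and Rnpep under 11. The cause of these turns was not tested. Counts over all genes also moved. In coarct above against below they were 15 by edgeR, 222 by DESeq2, 183 in 1 fit of all libraries and 1 without neuron-rich libraries, a setting that also left 0 in sham above against below and 82 in coarct below against BAT. Of coarct below, that setting kept only libraries 19 and 27. DESeq2 called 44 genes against 10 in sham above against below, 232 against 92 and 327 against 115 in sham PVAT against BAT, and 507 against 183 and 1389 against 600 in the coarctation groups. With the block, coarct above against below had 4 calls, sham PVAT against BAT 44 and 279, and coarctation PVAT against BAT 49 and 130, against 5, 65, 59, 49 and 100 in the same libraries without it. The fit of all libraries called 16 in sham above against below. On the high and low rRNA sides, coarct above against below had 0 and 9 calls, sham above against BAT 1 and 48, coarct above against BAT 10 and 16 and coarct below against BAT 19 and 0, with fewer libraries in each. On the high side, sham below had 0 calls against sham above and sham BAT. Comparisons that use sham below could not be fitted on the low side, which held 1 of its libraries. Leaving out 1 library gave 12 to 185 calls in coarct above against below (185 without coarct below 19, 180 without coarct below 27) and 8 to 23 in sham above against below. It gave 0 to 169 in coarct below against sham below (169 without sham below 28), 59 to 100 and 47 to 157 in sham PVAT against BAT, and 89 to 913 and 284 to 2621 in coarctation PVAT against BAT (913 and 2621 without coarct BAT 27, 307 and 284 in coarct below without 23 or 25). Depth kept Agtr2 (84 counts) out of every main fit.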
